A study of Capra hircus with 6 samples.

Results

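This account covers 10 genes that transmit or restrain transforming growth factor-β (TGF-β) signals, measured in dermal papilla cells of the cashmere goat: the receptor genes TGFBR1, TGFBR2, TGFBR3 and ENG, the Smad genes SMAD2, SMAD3, SMAD4 and SMAD7, and the corepressor genes SKI and SKIL. They were found by gene name among the 15944 genes in the deposited table. All 10 were found under their own names, and all 10 passed the filter on low counts that 12588 genes passed. The cells were wild type primary cultures grown from secondary hair follicles, the follicles that make cashmere, in shoulder skin of Albas goats aged 3 years, and they were used at passages 4 to 7. One group of 3 libraries (ATRA) had received all-trans retinoic acid, the vitamin A metabolite that activates retinoic acid receptors, at 100 µM for 24 h, and the Control group of 3 libraries had not. The methods state that the cells came from 3 animals, without saying whether libraries with the same number share an animal. RNA-seq of polyadenylated RNA gave 36887160 to 38012771 counts per Control library and 35532339 to 36870939 per ATRA library.

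TGF-β signals through a pair of serine/threonine kinase receptors. The ligand binds the type II receptor TGFBR2, which phosphorylates the type I receptor TGFBR1, and TGFBR1 then phosphorylates SMAD2 and SMAD3. These enter the nucleus with SMAD4 and act on transcription. TGFBR3 (betaglycan) and ENG (endoglin) are co-receptors that present ligand to the kinases, SMAD7 blocks the receptors and feeds back on the pathway, and SKI and SKIL bind Smad complexes and recruit corepressors. In hair follicles the pathway is known for its part in the regression phase. The counts measure transcripts only and hold no information on phosphorylation or protein.

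With ATRA, the transcripts of TGFBR3, TGFBR2, SKI, SMAD2 and ENG fell, those of SKIL, SMAD3, TGFBR1 and SMAD4 rose, and that of SMAD7 did not pass the test. At an adjusted p under 0.05 (edgeR's quasi-likelihood test, Benjamini-Hochberg adjustment over all genes tested), 4 of the 10 genes were higher, against 40.9% of all genes tested, and 5 were lower, against 38.7%. These shares lie near the background of a transcriptome in which most genes moved, so the number of calls says little about the 10 genes and their sizes and directions say more. The median absolute log₂ fold change (log₂FC) was 0.55 for the 10 genes and 0.59 for all genes tested. With the thresholds of the study's methods, |log₂FC| above 1 and an unadjusted p under 0.05, 1 of the 10 genes was lower (TGFBR3), against 17.3% of all genes, and 0 were higher, against 13.7%. The libraries of both groups lay fully apart for 9 of the 10 genes, against 80.1% of all genes.

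**Figure D1:**
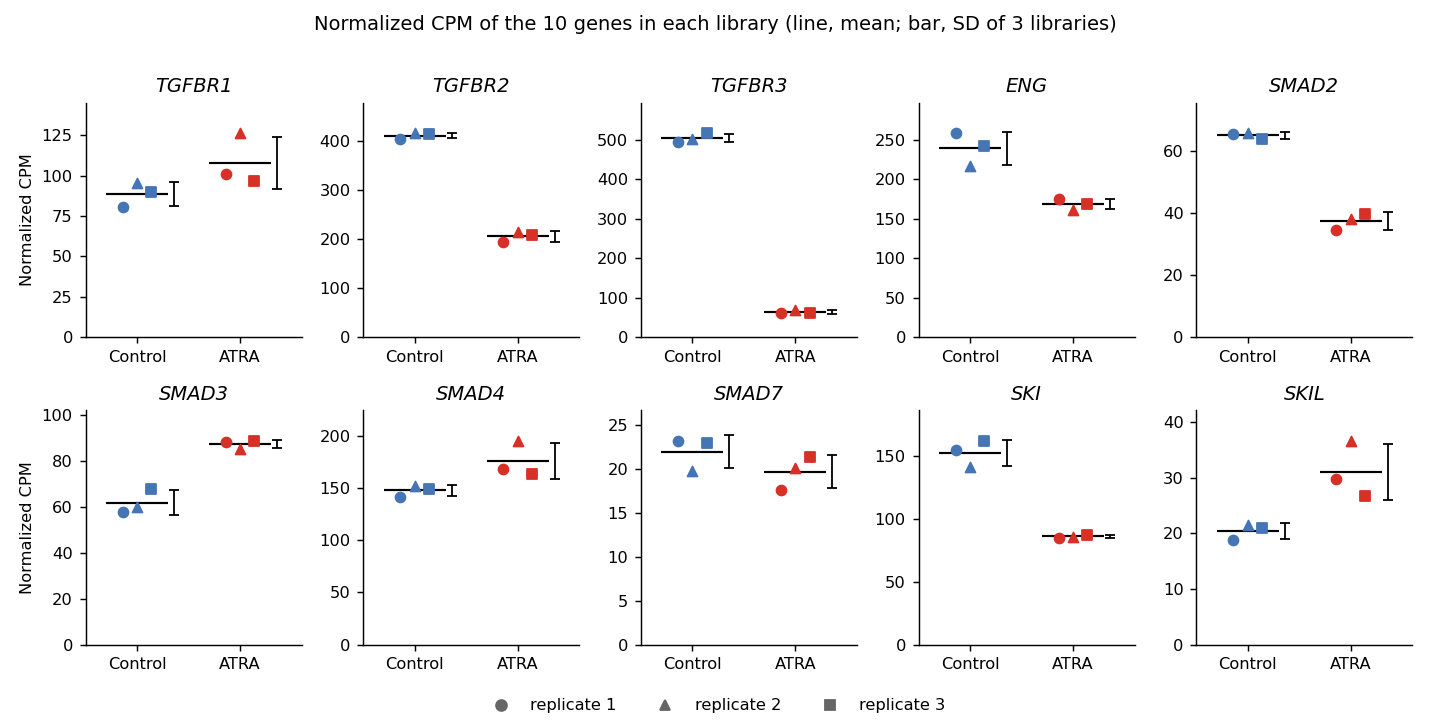
Normalized CPM (vertical axes, each from 0) of the 10 genes in the 3 Control libraries (blue) and the 3 ATRA libraries (red), with symbols for the replicate number, the mean as a line and the SD as a bar. TGFBR3 dropped from a mean of 505 to 62.6, whereas the SMAD7 libraries overlapped.

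Levels are given as normalized CPM, in which each count was divided by the size of its library after scaling by the TMM method of edgeR, which sets the bulk of genes equal between libraries. Dividing by library size only moved the median log₂FC of all genes tested from 0.04 to 0.52, and then 5 of the 10 genes were higher and 4 lower, against 62.9% and 22.7% of all genes. Errors of a log₂FC are given as its standard error (SE). Every direction below is relative to the bulk of genes, and the values with library size only are given where they turn a direction or end a call. The cell type markers are an exception, with calls under TMM scaling only. The ATRA replicate 2 library stood somewhat apart from its group: the chi-square per degree of freedom over genes was 19.2 and 17.9 against the other 2 ATRA libraries, which differed from each other by 5.16. Without it, 4 of the 10 genes were again higher and 5 lower.

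Among the receptor genes, TGFBR3 changed most. It had 495, 503 and 517 normalized CPM in Control replicates 1, 2 and 3, and 60.1, 68.2 and 59.6 in ATRA replicates 1, 2 and 3. The groups were far apart, with the highest ATRA library 427 CPM below the lowest Control library. TGFBR3 fell by 3.01 on the log2 scale (SE 0.0650, 95% interval -3.15 to -2.87, adjusted p = 4.99e-18), which is 8.06-fold lower. Of all genes tested, 92.7% changed by less in absolute log₂FC. It kept this direction and call under every alternative run, and its log₂FC with library size only was -2.53.

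TGFBR2, the receptor that binds the ligand first, had 405, 416 and 414 normalized CPM in the Control libraries and 194, 215 and 209 in the ATRA libraries. Its groups did not overlap, and the Control libraries differed little among themselves, with a coefficient of variation of 1.46%. The log₂FC was -0.999 (SE 0.0571, 95% interval -1.12 to -0.88, adjusted p = 1.07e-11). The gene therefore sat at the very edge of the fold threshold, and whether it counts as past |log₂FC| above 1 turned on the setting, with values from -1.04 without ATRA replicate 2 to -0.52 with library size only.

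TGFBR1, the kinase that passes the signal to the Smads, moved the other way and by less. The Control libraries had 80.3, 95.1 and 89.9 normalized CPM, and the ATRA libraries 101, 126 and 96.5. The groups came within 1.42 CPM of each other, between Control replicate 2 and ATRA replicate 3, and ATRA replicate 2 stood above the rest. TGFBR1 rose by 0.29 in log₂FC (SE 0.0889, 95% interval 0.10 to 0.47, adjusted p = 0.00752), or 1.22-fold. This call was the least steady of the 4 increases. The log₂FC was 0.15 without ATRA replicate 2, and without Control replicate 1 it was 0.21 with an adjusted p of 0.0566 (range over the alternatives 1.58e-06 to 0.161).

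ENG, a co-receptor of endothelial and stromal cells, had 258, 217 and 242 normalized CPM in the Control libraries and 175, 161 and 169 in the ATRA libraries. The lowest Control library, replicate 2, lay 42.0 CPM above the highest ATRA library. ENG fell by 0.51 on the log2 scale (SE 0.0642, 95% interval -0.64 to -0.37, adjusted p = 9.30e-07), or 1.42-fold. Its raw counts nearly coincided between the groups, from 7009 to 8011 with Control and from 6992 to 7551 with ATRA, and with library size only the log₂FC was -0.03 and the call was lost (adjusted p = 0.693, range over the alternatives 3.06e-13 to 0.693). The decrease of ENG is thus one relative to the bulk of genes.

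**Figure D2:**
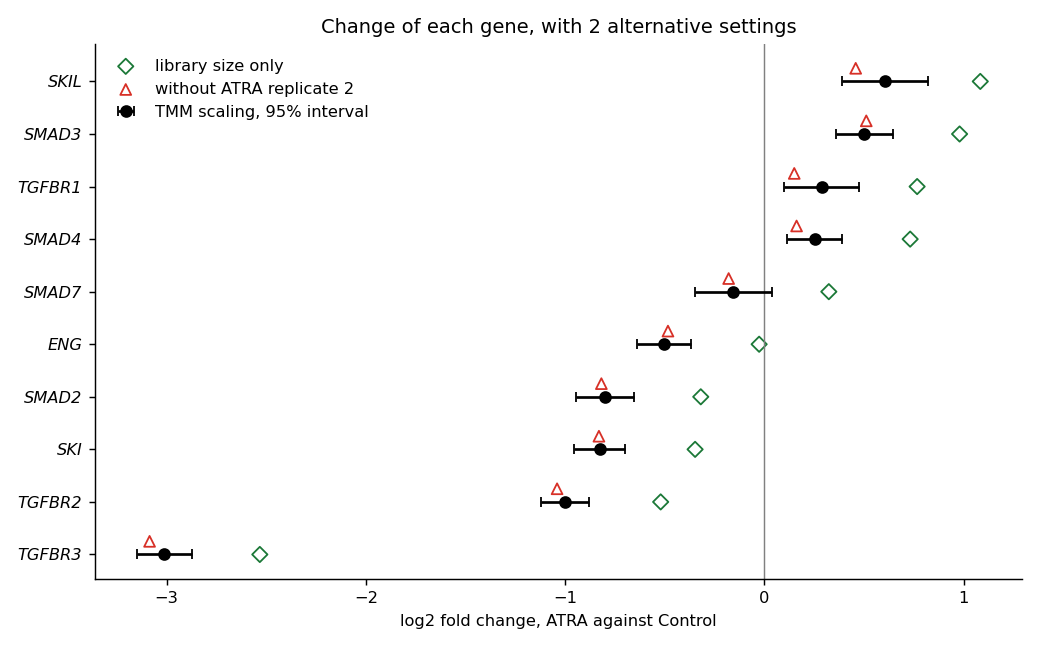
The log₂FC of each gene, ATRA against Control (horizontal axis), with its 95% interval under TMM scaling (black), with library size only (green diamonds) and without ATRA replicate 2 (red triangles). Library size only shifts all 10 genes to the right, which brings ENG to -0.03 and SMAD7 to 0.32.

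The genes of the receptor-activated Smads parted. SMAD2 had 65.7, 65.8 and 63.9 normalized CPM in the Control libraries and 34.4, 38.1 and 39.9 in the ATRA libraries. All ATRA libraries lay below all Control libraries. SMAD2 fell by 0.80 on the log2 scale (SE 0.0691, 95% interval -0.94 to -0.65, adjusted p = 5.10e-09), or 1.74-fold. SMAD3, its close relative that unlike the main SMAD2 form binds DNA directly, had 57.6, 59.7 and 67.9 CPM with Control and 88.2, 85.1 and 88.7 with ATRA. Here the order was turned round, and the lowest ATRA library exceeded the highest Control library by 17.3 CPM. SMAD3 rose by 0.50 in log₂FC (SE 0.0675, 95% interval 0.36 to 0.64, adjusted p = 1.98e-06), or 1.41-fold. The opposite directions of SMAD2 and SMAD3 held under each scaling tried, with values of -0.32 and 0.98 when library size only was used.

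SMAD4, the partner shared by the receptor-activated Smads of the TGF-β and bone morphogenetic protein (BMP) branches, had 142, 152 and 150 normalized CPM in the Control libraries and 169, 195 and 164 in the ATRA libraries. The groups were 11.9 CPM apart, and ATRA replicate 2 was again the highest. SMAD4 rose by 0.25 in log₂FC (SE 0.0659, 95% interval 0.11 to 0.39, adjusted p = 0.00199), or 1.19-fold, the smallest of the called changes among the 10 genes. Without ATRA replicate 2 the log₂FC was 0.16 and the call held, and over all alternatives the adjusted p ran from 8.45e-08 to 0.0972.

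SMAD7, the inhibitory Smad that TGF-β itself is known to induce, was the gene without a call. Its libraries had 23.1, 19.7 and 22.8 normalized CPM with Control and 17.6, 20.1 and 21.3 with ATRA. The groups overlapped, since Control replicate 2 lay below 2 of the ATRA libraries. The log₂FC was -0.16 (SE 0.0922, adjusted p = 0.129), and its 95% interval ran from -0.35 to 0.04, so that a decrease of the size seen for ENG lay outside it and no change lay inside. The lowest SMAD7 count was 638, at which counting error alone is 3.96%, below the coefficients of variation of 8.64% and 9.55% within the groups. The sign depended on the scaling: with library size only the log₂FC was 0.32 with an adjusted p of 0.00401, and without Control replicate 2 it was -0.23 with an adjusted p of 0.0427 (range over the alternatives 0.00401 to 0.429).

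The corepressor genes also moved in opposite directions. SKI had 155, 142 and 162 normalized CPM in the Control libraries and 85.3, 85.7 and 87.7 in the ATRA libraries. The ATRA libraries were nearly equal, with a coefficient of variation of 1.48%, and lay 53.9 CPM below the lowest Control library. SKI fell by 0.83 on the log2 scale (SE 0.0608, 95% interval -0.95 to -0.70, adjusted p = 4.70e-10), or 1.77-fold. SKIL, which encodes SnoN and is itself a known target of TGF-β and Smads, had 18.8, 21.5 and 21.0 CPM with Control and 29.7, 36.6 and 26.8 with ATRA. Every ATRA library exceeded every Control library, and ATRA replicate 2 was the highest while replicate 3 was the lowest of its group. SKIL rose by 0.60 in log₂FC (SE 0.102, 95% interval 0.39 to 0.82, adjusted p = 3.47e-05), or 1.52-fold, the largest increase among the 10 genes under TMM scaling. Its Control libraries held 584 to 696 counts, and counting error there was at most 4.14%. The opposite directions of SKI and SKIL held under each scaling tried, and with library size only their log₂FC was -0.35 and 1.08.

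The spread within the groups differed between genes. In the Control group the coefficient of variation ran from 1.46% for TGFBR2 to 8.80% for SMAD3, and in the ATRA group from 1.48% for SKI to 16.3% for SKIL. ATRA replicate 2 held the highest level of its group for 5 of the 10 genes (TGFBR1, TGFBR2, TGFBR3, SMAD4 and SKIL), and over all genes tested it was the highest for 38.4%. For SKIL it lay 0.25 above the group mean on the log2 scale, and for TGFBR1 0.24. In the Control group, replicate 2 was the highest for TGFBR1, TGFBR2, SMAD2, SMAD4 and SKIL and the lowest for ENG, SMAD7 and SKI. On the second principal component of all genes tested the libraries numbered 2 had scores of -17.1 (Control) and -9.83 (ATRA), and the other 4 libraries had positive scores. The part of this difference between libraries in the 4 increases was not tested beyond leaving each library out.

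**Figure D3:**
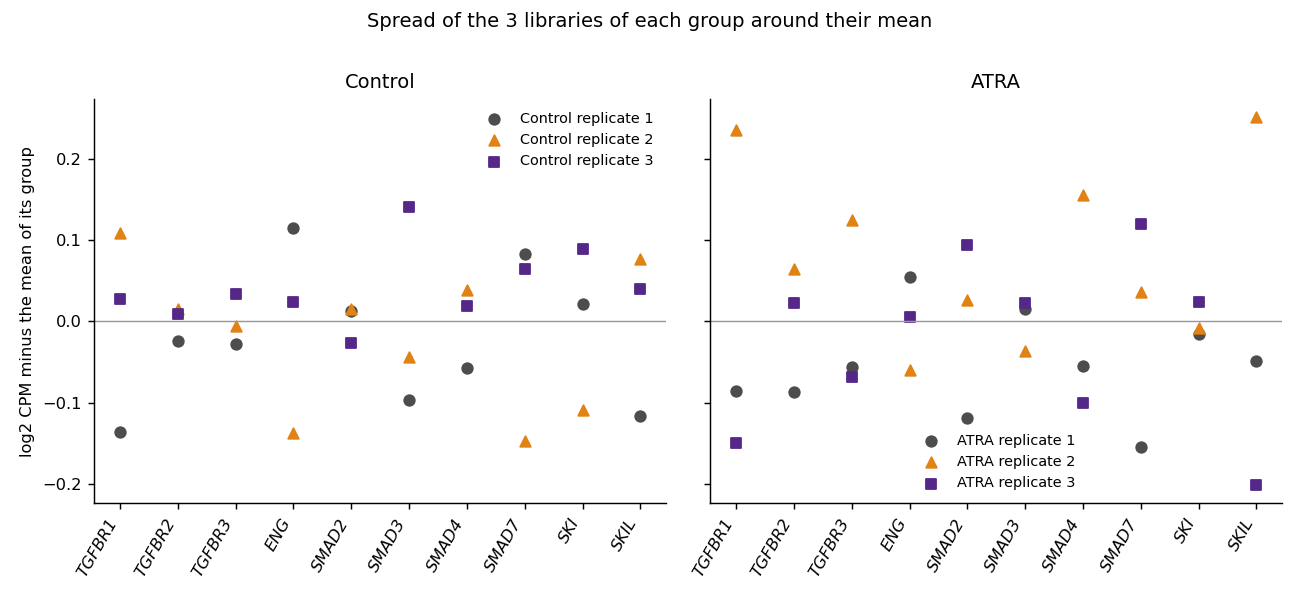
Deviation of each library from the mean of its group (vertical axis, log2 CPM) for the 10 genes, Control on the left and ATRA on the right. ATRA replicate 2 lies above its group by 0.25 for SKIL, 0.24 for TGFBR1 and 0.16 for SMAD4.

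Count ratios within a library do not depend on the scaling between libraries, and 7 pairs of the genes were compared in this way. Because gene length was not taken into account, such a ratio shows how a pair shifted between the groups and not which transcript was the more abundant. The TGFBR1 to TGFBR2 ratio was 0.198, 0.229 and 0.217 in the Control libraries and 0.521, 0.587 and 0.462 in the ATRA libraries. The counts of the type I receptor relative to the type II receptor were thus 2.43-fold higher with ATRA. The TGFBR3 to TGFBR2 ratio went from 1.23 ± 0.0193 to 0.304 ± 0.0167 (SD, n = 3 each), so the co-receptor transcript fell further than the receptor transcript, by 4.04-fold. The ENG to TGFBR3 ratio went from 0.474 ± 0.0453 to 2.70 ± 0.292 (SD, n = 3 each), a 5.70-fold shift between the co-receptors.

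For the Smads, the SMAD2 to SMAD3 ratio was 1.14, 1.10 and 0.942 in the Control libraries and 0.391, 0.447 and 0.450 in the ATRA libraries, a 2.47-fold shift toward SMAD3. The SMAD7 to SMAD3 ratio went from 0.356 ± 0.0396 to 0.225 ± 0.0223 (SD, n = 3 each). The SMAD4 to SMAD3 ratio, at 2.40 ± 0.176 and 2.02 ± 0.242 (SD, n = 3 each), overlapped between the groups (exact permutation test, two-sided, p = 0.2). The SKI to SKIL ratio was 8.24, 6.58 and 7.74 with Control and 2.87, 2.34 and 3.28 with ATRA, a 2.67-fold shift toward SKIL. For 6 of the 7 pairs the groups did not overlap, and the exact permutation test, two-sided, gave p = 0.1, the smallest that 3 libraries against 3 can give (0.117 after Benjamini-Hochberg adjustment over the 7 pairs). These shifts were larger than the spread between replicates, but the exact permutation test could not reach a p of 0.05 with this number of libraries. The share of pairs without overlap among all genes was not computed, and 80.1% of single genes did not overlap. Each ratio also combines the changes of 2 genes described above, so the count of pairs says little more about them.

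**Figure D4:**
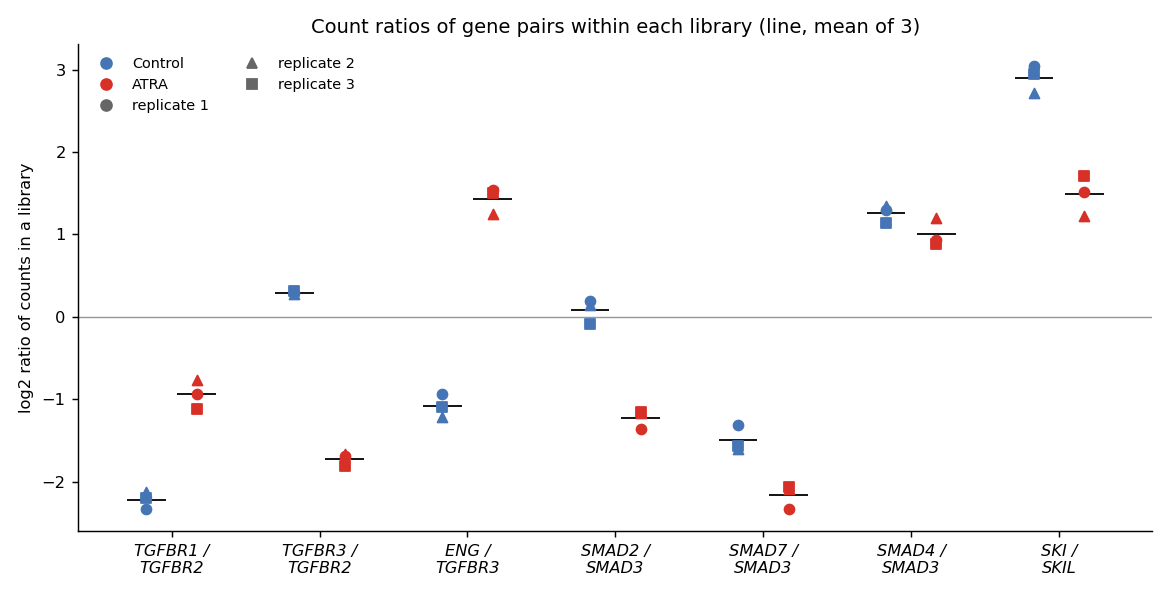
Log2 ratio of the counts of 2 genes within each library (vertical axis) for 7 pairs, Control in blue and ATRA in red, with the mean of the 3 libraries as a line. The groups overlap for SMAD4 to SMAD3, and the ENG to TGFBR3 ratio shifts most, by 5.70-fold.

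Around these genes, 8 lists of other pathway genes were examined by their counts of calls. Together the lists held 90 genes, of which 83 were tested, 41 were called higher and 35 called lower, or 49.4% and 42.2%, against 40.9% and 38.7% of all genes. With library size only these counts were 50 higher and 22 lower, or 60.2% and 26.5%, against 62.9% and 22.7% of all genes. The median log₂FC of the 83 genes was 0.13, against 0.04 for all genes tested. No list was compared with chance.

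Among ligands and the proteins that hold or release them, 5 of 10 tested genes were higher and 5 lower, with a median log₂FC of -0.12. TGFB1 had 65.6 ± 5.58 CPM with Control and 285 ± 15.5 CPM with ATRA (SD, n = 3 each), a log₂FC of 2.12 (adjusted p = 1.80e-15). LTBP3, which binds latent TGF-β, had a log₂FC of 3.46. THBS1 (thrombospondin 1) and ITGAV (integrin αV), both able to activate latent TGF-β, had log₂FC of -6.19 and -1.81. In this list 7 of the 10 tested genes were past |log₂FC| above 1 with p under 0.05, 4 higher and 3 lower, against 13.7% and 17.3% of all genes.

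The other type I and type II receptors of the superfamily, which serve activins and BMPs, had 4 of 8 tested genes higher and 2 lower, with a median log₂FC of 0.15. With R's t.test function 2 were higher and 1 lower, and 3 to 4 were higher when each library was left out. ACVR2B, an activin type II receptor, rose most, from 2.22 ± 0.167 to 16.1 ± 0.856 CPM (SD, n = 3 each), with a log₂FC of 2.86 (adjusted p = 1.17e-13), and ACVR2A had a log₂FC of 0.54. The type I receptors ACVR1B and BMPR1A had log₂FC of -0.69 and -0.36, but with library size only ACVR1B lost its call and BMPR1A was at 0.12. R's t.test function also ended the call of BMPR1A (adjusted p = 0.134, range over the alternatives 4.97e-09 to 0.262). Among the other Smads, 2 of 4 were higher and 1 lower, and 1 was higher with R's t.test function or without Control replicate 1. SMAD6, the inhibitory Smad that acts mainly on the BMP branch, rose from 23.4 ± 1.77 to 72.5 ± 3.37 CPM (SD, n = 3 each), with a log₂FC of 1.63 (adjusted p = 3.17e-13). The SMAD6 to SMAD7 count ratio, a pair chosen after its values were seen and not tested, was 0.932, 1.19 and 1.10 in the Control libraries and 3.96, 3.55 and 3.58 in the ATRA libraries. The BMP-branch Smad genes SMAD5 and SMAD9 had log₂FC of 0.27 and -0.62. The call of SMAD5 was lost without Control replicate 1 (log₂FC 0.20) and with R's t.test function (adjusted p = 0.153, range over the alternatives 1.12e-06 to 0.153), and without ATRA replicate 2 its log₂FC was 0.15. The call of SMAD9 was lost with library size only (log₂FC -0.14).

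Of the regulators that modify or degrade receptors and Smads, 8 of 18 tested genes were higher and 9 lower, with a median log₂FC of -0.21. The decreases reached further than the increases: DAB2, an adaptor that links TGF-β receptors to Smads, had a log₂FC of -2.64, and PMEPA1, a Smad-induced gene whose product sequesters SMAD2 and SMAD3, had -2.22. Among the increases, PPM1A, a phosphatase of receptor-activated Smads, had 0.53 and NEDD4L, a ubiquitin ligase, 0.48. Of the corepressors and partners that act with SKI and SKIL, 7 of 12 were higher and 4 lower. NCOR1, the corepressor that SKI recruits, rose from 135 ± 7.56 to 226 ± 6.12 CPM (SD, n = 3 each), with a log₂FC of 0.74 (adjusted p = 9.68e-10), while SKI itself fell. TGIF1, another Smad corepressor, had a log₂FC of 0.75, and the histone deacetylase gene HDAC1 and the repressor gene ZEB1 had -0.92 and -0.89. Of the coactivators and DNA-binding partners of Smads, 7 of 15 tested genes were higher and 7 lower under TMM scaling, with CEBPB at 0.92, E2F5 at 1.19, RUNX1 at -1.76 and RBL1 at -1.64. With library size only, 4 of these 15 were lower.

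**Figure D5:**
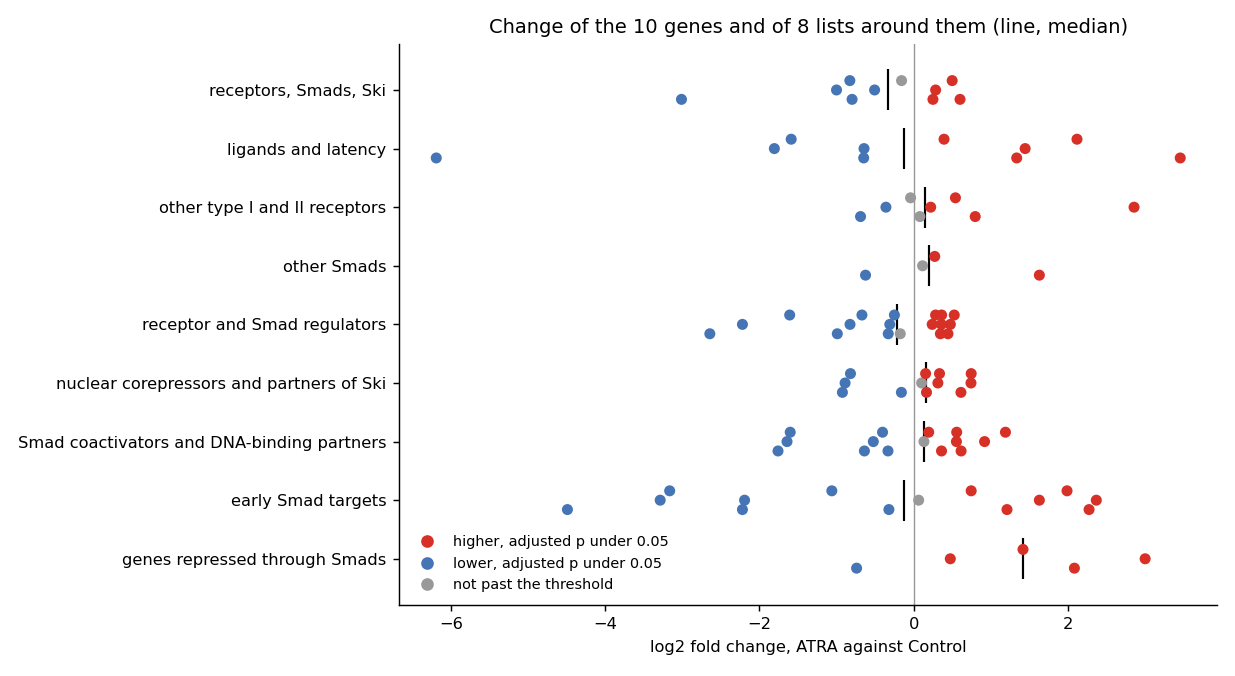
The log₂FC of every tested gene (horizontal axis, ATRA against Control) in the group of 10 genes (top) and in 8 lists around it, coloured by call, with the median of each list as a line. The medians of 7 lists lie between -0.21 and 0.20, and that of the list named genes repressed through Smads lies at 1.42.

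Early targets that TGF-β induces through Smads split, with 6 of 14 higher and 7 lower and a median log₂FC of -0.13. TGFBI and CCN2 (listed as CTGF) fell, with log₂FC of -4.49 and -3.29, and JUNB and ATF3 rose, with 2.28 and 2.37. SKIL and SMAD7, which belong to the same kind of target, were kept out of this list as they are described above. Of 5 genes listed as ones that TGF-β can repress through Smads, 4 were higher and 1 lower, against 40.9% and 38.7% of all genes. Whether the pathway represses these genes in dermal papilla cells was not tested. The median log₂FC was 1.42, the value of ID1. ID3 and ID2, inhibitors of basic helix-loop-helix factors, had log₂FC of 3.00 and 2.09, and the cell cycle phosphatase gene CDC25A had -0.74, a call that was lost with library size only.

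The identity of the cultures was checked with marker lists. Of 20 fibroblast and dermal papilla markers, 19 were listed and 15 tested. Under TMM scaling, 13 of these 15 were lower and 0 higher with ATRA, against 38.7% and 40.9% of all genes. Some of these decreases are ones relative to the bulk of genes. Raw counts of PDGFRB were 6378 to 6765 with Control and 6355 to 6724 with ATRA. Those of LEF1 were 468 to 550 and 430 to 517, and those of FGF7 765 to 877 and 924 to 966. The summed level of the 19 listed markers was 85554 to 87289 normalized CPM in the Control libraries and 4532 to 4860 in the ATRA libraries, most of it from COL1A1, COL1A2 and VIM. Among the dermal papilla markers, ALPL, PROM1 and CORIN had at most 1 count in every library and SOX2 at most 16, whereas others were abundant in the Control group. PROM1 encodes CD133, and the paper reported that its purified cells stained positive for CD133 and α-smooth muscle actin. That staining was of protein, whereas the counts here are of transcripts. ACTA2 (α-smooth muscle actin) went from a mean of 6582 to 8.37 CPM, VCAN (versican) from 1641 to 32.4, BMP4 from 406 to 15.9 and RSPO3 from 275 to 73.7, while LEF1 was at 16.1 and 11.1. The stromal markers VIM and PDGFRA had means of 19158 and 865 CPM with Control and 1595 and 129 CPM with ATRA, and PDGFRB had 206 and 152 CPM. TWIST1 and TWIST2 did not pass the test, with means of 78.2 and 45.8 CPM with Control and 71.0 and 46.6 CPM with ATRA. In such bulk samples, fewer cells of a type and less RNA per cell cannot be told apart, and this holds for each of the 10 genes. Because ENG is also abundant in endothelial cells, 8 endothelial markers were examined. Of these, 6 were listed and 4 tested. With ATRA, 2 were higher (PECAM1 and TEK) and 1 lower (ERG), against 40.9% and 38.7% of all genes. The 6 markers summed to 82.4 to 90.3 CPM with Control and 15.9 to 17.6 with ATRA, most of it from ERG in the Control group. ERG went from a mean of 85.2 to 9.20 CPM, and TEK from 0.619 to 1.13 CPM. The defining marker CDH5 had at most 1 count in every library, while PECAM1 was at 0 throughout the Control group and at 242, 340 and 206 counts in the ATRA libraries. The leukocyte markers, 3 of 6 listed, summed to 2.69 to 5.86 CPM with Control and 10.7 to 12.0 with ATRA, most of it from CD68. The keratinocyte markers, 6 of 9 listed, summed to 3.11 to 4.98 and 5.37 to 5.97 CPM, and the melanocyte markers, 2 of 6 listed, to 3.80 to 4.30 and 1.97 to 2.34 CPM. Most of the keratinocyte sum came from KRT10, whereas the basal markers KRT14 and KRT5 had 10 to 20 and 2 to 7 counts per Control library and at most 3 and 0 per ATRA library. Pericyte and smooth muscle markers, 8 of 8 listed, summed to 458 to 464 CPM with Control and 32.4 to 36.1 with ATRA. CSPG4 and NOTCH3, with means of 381 and 78.3 CPM in the Control group and 14.4 and 19.6 CPM in the ATRA group, made up nearly all of this sum, and RGS5, MYH11, DES, MCAM, ABCC9 and KCNJ8 had at most 20 counts in any library. The part of these marker changes in the values of the 10 genes was not tested.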

How the data were processed

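RNA-seq libraries of polyadenylated RNA from 3 Control and 3 ATRA cultures were used. Read cleaning used fastp and TrimGalore according to the study's methods. The submitters' processing notes name HISAT2, featureCounts and DESeq2, and the genome build and annotation are not given in the sources used here. The authors deposited raw counts per gene, 1 column per library, without normalization. All 6 columns were used and matched to samples by treatment and number.

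Genes were kept by edgeR's filterByExpr, scaled by TMM, and tested on all 12588 kept genes with the quasi-likelihood test of edgeR 4.0.16 (limma 3.58.1, R 4.3.3), robust and two-sided, with no covariate. Fitted log₂FC carry a prior count of 0.125. Dividing the size of each log₂FC by √F gave its SE. The count ratios had 0.5 added to each count on the log2 scale. The fit was tested on simulated data. Figures were drawn with Python 3.11.15 and matplotlib 3.10.9.

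The 10 genes and all lists were chosen with earlier results of these data known. From each pathway list, up to 2 genes per direction were named, those with the largest log₂FC among genes with an adjusted p under 0.05, a mean CPM of at least 1 and groups that did not overlap. VIM, PDGFRA, ERG and the other markers come from the marker lists. CCN2 was matched to CTGF. The alternatives were 3 other scalings, DESeq2 1.42.0, the t.test function of R (named in the study's methods) with a pseudocount of 1 on normalized CPM, other filters, the replicate number as a block, ratios of mean CPM with a pseudocount of 1, and omission of single libraries. The p-values measure the spread between these cultures. No library pair within a group agreed within sampling noise (chi-square per degree of freedom 5.16 to 19.2).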

Additional observations from a re-analysis of the deposited data

How the results depend on the processing

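Of 140 alternative values for the log₂FC of the 10 genes that came with a test, 134 kept the direction and the side of the threshold. The exceptions were TGFBR1 without Control replicate 1 (0.21) and with R's t.test function (0.28, adjusted p = 0.161), SMAD4 with that function (0.25, adjusted p = 0.0972), ENG with library size only (-0.03), and SMAD7, which reversed to 0.32 with library size only and gained a call without Control replicate 2 (-0.23). With R's t.test function, 2 genes were called higher, in place of 4. Past |log₂FC| above 1 with p under 0.05 stood 1 gene, TGFBR3, and 1 to 2 genes when each library was left out. There were 2 with RLE scaling, DESeq2, no filter on low counts or the replicate block, where TGFBR2 joined as lower. With library size only there were also 2, but TGFBR2 was at -0.52 and the gene that joined was SKIL, higher at 1.08. Leaving out each library gave 3 to 4 genes called higher and 5 to 6 lower. Of the other pathway genes, 22 were lower with library size only, in place of 35, and BMPR1A reversed to 0.12. The cause of these differences was not tested, except that library size only moved the median of all genes to 0.52. The deviations of same-numbered libraries had correlations of 0.0892, 0.0299 and -0.0764 across genes, which are not independent replicates. Both libraries numbered 2 lay on 1 side of the second principal component, but the numbers were not taken to pair the libraries, so the replicate block (5123 genes higher and 4869 lower, against 5151 and 4877) is given only here. The lowest count of any of the 10 genes was 584, and the number of libraries limited the exact permutation tests of count ratios, where 3 against 3 cannot go below p = 0.1.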
